A study of Mus musculus with 8 samples.

Results

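Fibroblasts of the lung include adventitial and alveolar kinds, and 8 marker genes of these were followed in cells sorted from tumor-bearing mouse lungs by labelling with the peptide probe QZ1. The 8 genes were taken by symbol from the deposited table of raw counts. Pi16, Ly6a, Scara5 and Apod were listed as adventitial, and Npnt, Ces1d, Inmt and Limch1 as alveolar. All 8 were found among the 27179 genes of the table, and all 8 were among the 15583 genes that passed the filter on low counts. The libraries came from 4 QZ1-hi and 4 QZ1-lo samples, and the series' design text gives them as 4 biological replicates of each. Both populations came from the lungs of female mice of strain C57BL/6 in the labels, C57BL/6J in the study's methods, 18 to 22 weeks old, in which an intratracheal adenovirus carrying Cas9 and guides had induced the Eml4-Alk inversion 11 to 12 weeks earlier. The mice had received 4.5 nmol of QZ1-(PEG2K), a peptide probe activated by protease cleavage, 2 h before their lungs were collected. Live CD45- CD11b- cells were then sorted by QZ1 signal against EpCAM, an epithelial surface protein. The mice of both populations share the tumor induction and the probe, but the inversion arises only in cells that the virus reaches, so the sorted populations need not carry it alike. No healthy or probe-free group entered the comparison, and the libraries are not tied to single mice by the labels. The purity of the sorted fractions was not assessed directly in the study. Replicate numbers follow the order of deposition and only name the libraries. An antibody to Ly6-A/E, the protein product of Ly6a, was among the stains of the sort but did not set the gate. Total counts per library ran from 18380918 to 26847938 in QZ1-hi and from 21015669 to 25382906 in QZ1-lo. Mitochondrial ribosomal RNA made up 50.1% ± 8.76 of a QZ1-hi library and 37.3% ± 7.50 of a QZ1-lo library (mean ± SD, n = 4 each). With mitochondrial and ribosomal RNA genes removed from the table, each of the 8 genes kept its direction and its side of the threshold.

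Adventitial fibroblasts lie in the connective tissue cuffs around large airways and blood vessels, where they build collagen-rich matrix and carry stem cell antigens. Alveolar fibroblasts lie in the walls of the alveoli, next to the alveolar epithelium and the capillaries, and support epithelial cells and elastic fibers. Several of their markers are also made by other lung cells. In RNA from bulk sorted cells, fewer cells of a type and less RNA per cell cannot be told apart, so each value below is a level in a mixed population.

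The stretch before the transcription start is shown for Inmt and Apod, the members with the highest fold changes below, and for Npnt and Limch1, which had low ones. RefSeq (GRCm38.p6) gave a promoter for 5 of the 8 members, namely Pi16, Apod, Npnt, Inmt and Limch1. It lists 2 starts for Npnt and 3 for Limch1, of which the outermost 5′ start was used, and the others are not described. The 200 bases that end at the base before the RefSeq start are printed 5′ to 3′ on the strand of the gene. Capitals mark TATAAA in Inmt and GGGCGG, or its reverse complement CCGCCC, in Npnt and Limch1. The windows are chr6:55174991-55175190 on the minus strand for Inmt, chr16:31314809-31315008 on the minus strand for Apod, chr3:132950292-132950491 on the minus strand for Npnt and chr5:66745689-66745888 on the plus strand for Limch1.
Inmt: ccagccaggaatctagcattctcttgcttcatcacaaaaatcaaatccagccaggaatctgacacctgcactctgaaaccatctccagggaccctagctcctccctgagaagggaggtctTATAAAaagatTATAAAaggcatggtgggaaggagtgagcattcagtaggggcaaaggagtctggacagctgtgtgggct
Apod: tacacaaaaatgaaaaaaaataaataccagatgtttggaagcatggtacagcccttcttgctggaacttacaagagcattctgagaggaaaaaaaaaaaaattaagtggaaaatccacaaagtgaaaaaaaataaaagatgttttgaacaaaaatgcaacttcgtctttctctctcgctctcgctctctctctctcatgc
Npnt: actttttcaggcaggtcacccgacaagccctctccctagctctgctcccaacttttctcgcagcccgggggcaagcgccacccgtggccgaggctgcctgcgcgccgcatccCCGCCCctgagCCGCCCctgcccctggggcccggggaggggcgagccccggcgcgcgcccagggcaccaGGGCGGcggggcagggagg
Limch1: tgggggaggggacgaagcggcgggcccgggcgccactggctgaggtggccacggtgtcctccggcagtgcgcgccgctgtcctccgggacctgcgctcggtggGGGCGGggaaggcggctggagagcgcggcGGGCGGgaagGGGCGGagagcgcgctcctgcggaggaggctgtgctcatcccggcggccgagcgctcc
Both strands were searched for TATAAA, the core of the promoter element that positions transcription starts. They were also searched for CCAAT, an element bound by a general factor. The last motif searched was GGGCGG, the core site of zinc finger factors of the Sp family. Inmt held 2 copies of TATAAA and no CG dinucleotide, and 9.96% of 32851 promoters of the same length held at least 1 copy of that motif. Apod held none of the 3 motifs, a GC content of 34.5% and 3 CG dinucleotides. Npnt and Limch1 held 3 copies of GGGCGG each, and 31% of promoters held at least 1. Their GC content was 76% for Npnt and 78.5% for Limch1 against a median of 53%. They held 19 and 27 CG dinucleotides, more than in 85.6% and 95.5% of promoters, where the median was 5. Pi16 held 1 CCAAT, of which 29.3% of promoters held at least 1, with a GC content of 53% and 2 CG dinucleotides. Its window, chr17:29318682-29318881, reaches into the annotated span of the gene, which begins at 29318796. The Pi16 values are thus not of upstream bases alone, and its sequence is not printed. A match describes these letters and is not a bound site.

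The first question was whether the 4 adventitial markers differed between cells with high and low QZ1 signal. All 4 were higher in QZ1-hi, with log2 fold changes from 1.37 for Ly6a to 6.03 for Apod, and for each of the 4 every QZ1-hi library stood above every QZ1-lo library. Among all genes tested, 9.88% were called higher in QZ1-hi, 8.21% were called lower, 11.9% had every QZ1-hi library above every QZ1-lo library and 10.7% had every one below. The calls were 1540 genes higher and 1280 lower, at a Benjamini-Hochberg adjusted p under 0.05 in edgeR's quasi-likelihood test. Scaling by library size alone turned the share of higher calls from 54.6% to 26.0% and took the median over all genes from 0.02 to -0.44 on the log2 scale. The median log2 fold change of the 4 adventitial markers was 3.50. Levels are given as CPM, the counts scaled to a common library size with TMM factors (trimmed mean of M-values), which adjust for differences in composition between libraries.

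Pi16 (Entrez 74116, chr17:29318796-29328903 in GRCm38) encodes a peptidase inhibitor of the CAP family and is a classical label of adventitial fibroblasts. Its levels were 57.8, 114, 225 and 98.7 CPM in QZ1-hi replicates 1 to 4 and 7.60, 18.3, 18.9 and 4.17 CPM in QZ1-lo replicates 1 to 4. The lowest QZ1-hi library was thus well above the highest QZ1-lo library, although levels varied several-fold within each population. Pi16 was higher in QZ1-hi by 3.34 on the log2 scale (SE 0.52, edgeR adjusted p = 0.00125), which placed it at rank 199 of the 15583 genes by log2 fold change. Mean levels were 124 ± 71.4 CPM and 12.3 ± 7.48 CPM, respectively (SD, n = 4 each). An antisense gene, AC162182.1, overlaps 222 bases (3.49%) of the exons of Pi16 on the other strand, and the strand setting of the counting is not given in the sources used here.

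Scara5 (Entrez 71145, chr14:65666403-65764826) encodes a scavenger receptor that takes up ferritin. It was measured at 30.6, 53.6, 118 and 53.9 CPM in QZ1-hi and at 1.79, 7.53, 10.3 and 0.655 CPM in QZ1-lo. QZ1-hi replicate 3 was again the highest of all, and QZ1-lo spanned a 15.7-fold range from replicate 4 to replicate 3. The log2 fold change was 3.66 (SE 0.70, edgeR adjusted p = 0.00408), and without QZ1-lo replicate 3 it was 4.28. The weighted fit in limma-voom gave 4.40.

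Apod (Entrez 11815, chr16:31296192-31314808) encodes apolipoprotein D, a lipocalin that binds small hydrophobic molecules. It was the least abundant member, with 46, 77, 53 and 36 raw counts in the QZ1-hi libraries and 0, 0, 3 and 1 in the QZ1-lo libraries. These are 1.95, 3.80, 3.06 and 2.15 CPM against 0, 0, 0.109 and 0.0409 CPM, where 3 counts correspond to 0.0894 to 0.179 CPM depending on the library. QZ1-lo was therefore at or near the limit of detection at this depth. Apod passed the filter on low counts through its QZ1-hi libraries alone, which limits what its call and its rank can show. Taken as summed counts, 212 against 4, the scaled ratio was 74.9 with an exact 95% interval of 28.8 to 278 that covers counting error only. The fitted log2 fold change of 6.03 (SE 0.88, edgeR adjusted p = 0.000915) was the fifth highest of all genes tested, depends on the prior count used for near-zero libraries, and was 7.27 without QZ1-lo replicate 3.

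Ly6a (Entrez 110454, chr15:74994877-74998031) encodes Sca-1, a membrane protein held by a lipid anchor that is found on stem and progenitor cells, fibroblasts and endothelial cells. It was measured at 89.9, 66.0, 130 and 52.7 CPM in QZ1-hi and at 32.1, 30.3, 45.3 and 22.8 CPM in QZ1-lo. The populations did not overlap, but QZ1-hi replicate 4 and QZ1-lo replicate 3 were close. Its log2 fold change of 1.37 (SE 0.28, edgeR adjusted p = 0.00557) was the lowest of the 4 adventitial markers. Of the 50-base stretches of the Ly6a transcripts, 19.0% also occur in transcripts of 4 other genes and 15% occur in Ly6c1, so part of its signal cannot be assigned with certainty.

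**Figure D1:**
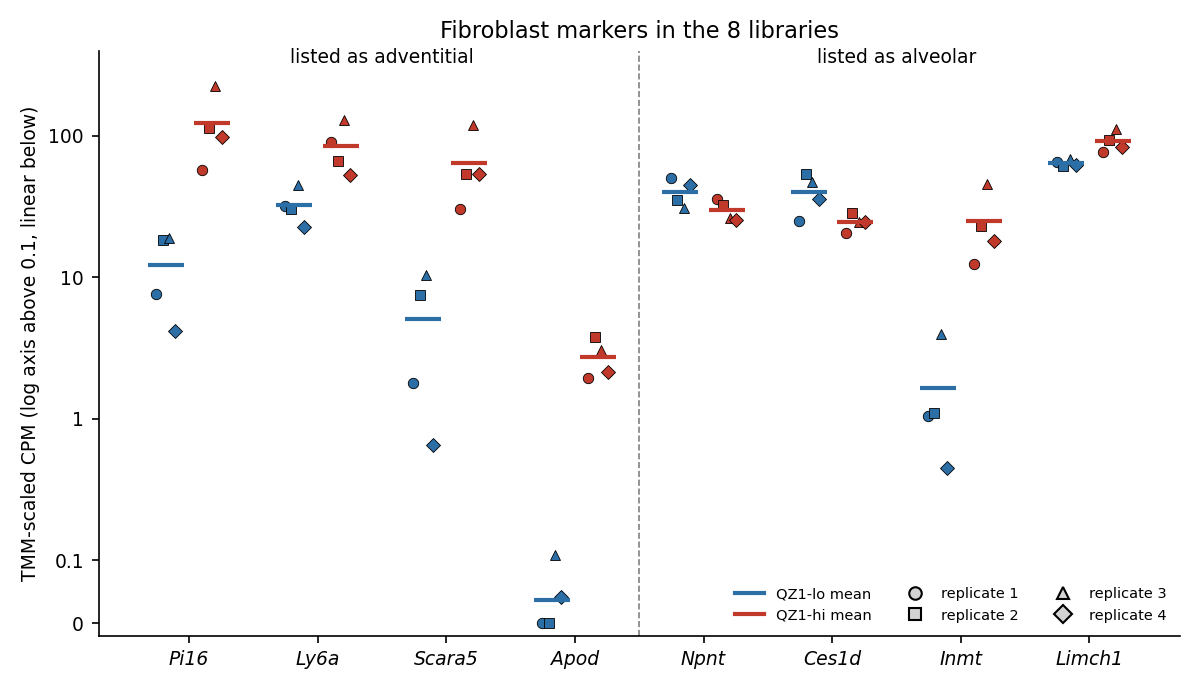
Levels of the 8 fibroblast markers in TMM-scaled CPM, on an axis that is logarithmic above 0.1 CPM and linear below it, with 1 point per library (blue QZ1-lo, red QZ1-hi, shapes for replicates) and a line at each mean of 4 libraries. The populations are separate for Pi16, Ly6a, Scara5, Apod, Inmt and Limch1 and overlap for Npnt and Ces1d.

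The same question for the 4 genes listed as alveolar had a mixed answer. Inmt and Limch1 were higher in QZ1-hi, Ces1d was lower and Npnt was not called, so the 4 genes did not move as one group. Their median was 0.04 on the log2 scale, against 0.02 over all genes tested.

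Inmt (Entrez 21743, chr6:55170627-55174990) encodes indolethylamine N-methyltransferase, which methylates tryptamine and related amines. It was measured at 12.5, 23.0, 45.8 and 18.1 CPM in QZ1-hi and at 1.04, 1.10, 3.98 and 0.450 CPM in QZ1-lo. The populations did not overlap, and replicate 3 was the highest library in each. The means were 24.8 ± 14.6 CPM (SD, n = 4) and 1.64 ± 1.59 CPM (SD, n = 4), the log2 fold change was 3.91 (SE 0.61, edgeR adjusted p = 0.00134) and the rank was 73. Without QZ1-lo replicate 3, the library with the highest level in that population, the log2 fold change was 4.82.

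Limch1 (Entrez 77569, chr5:66745889-67057159) encodes a regulator of non-muscle myosin. Its levels were 76.4, 92.8, 112 and 84.1 CPM in QZ1-hi and 65.7, 61.7, 69.2 and 62.4 CPM in QZ1-lo. The QZ1-lo libraries lay close together, and the lowest QZ1-hi library was just above them. Limch1 was higher by 0.50 on the log2 scale (SE 0.13, edgeR adjusted p = 0.0233). The call was lost without QZ1-hi replicate 2 (0.47, adjusted p = 0.0613), QZ1-hi replicate 3 (0.35, 0.0818), QZ1-lo replicate 1 (0.50, 0.0541), QZ1-lo replicate 2 (0.47, 0.0686) or QZ1-lo replicate 4 (0.48, 0.0595). With library size as the sole scaling the log2 fold change was 0.025 (adjusted p = 0.950), which is 0.47 above the median of all genes under that scaling.

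Npnt (Entrez 114249, chr3:132881745-132950291) encodes nephronectin, a matrix protein bound by integrin alpha 8 beta 1 that alveolar epithelial cells also make. It was measured at 36.1, 32.5, 26.4 and 25.3 CPM in QZ1-hi and at 50.3, 35.4, 30.8 and 44.7 CPM in QZ1-lo. QZ1-lo replicate 3 lay below QZ1-hi replicates 1 and 2, so the populations overlapped. The log2 fold change was -0.42 (SE 0.18, edgeR adjusted p = 0.144). Npnt passed the threshold with library size as the sole scaling (-0.87, adjusted p = 0.0308), where it was 0.43 below the median of all genes.

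Ces1d (Entrez 104158, chr8:93166072-93197804) encodes a carboxylesterase that hydrolyzes lipid esters. It was measured at 20.4, 28.4, 24.7 and 24.7 CPM in QZ1-hi and at 24.9, 53.4, 46.9 and 36.0 CPM in QZ1-lo. The QZ1-hi libraries spanned a narrow range, and QZ1-lo replicate 1 lay within it while the other QZ1-lo libraries stood above. Ces1d was lower in QZ1-hi, with a log2 fold change of -0.71 (SE 0.22, edgeR adjusted p = 0.0416). The call was lost without QZ1-hi replicate 1 (-0.63, adjusted p = 0.107), QZ1-hi replicate 3 (-0.74, 0.0734), QZ1-hi replicate 4 (-0.68, 0.0881), QZ1-lo replicate 2 (-0.55, 0.127), QZ1-lo replicate 3 (-0.63, 0.101) or QZ1-lo replicate 4 (-0.76, 0.0548), and in limma-voom (-0.61, 0.106).

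**Figure D2:**
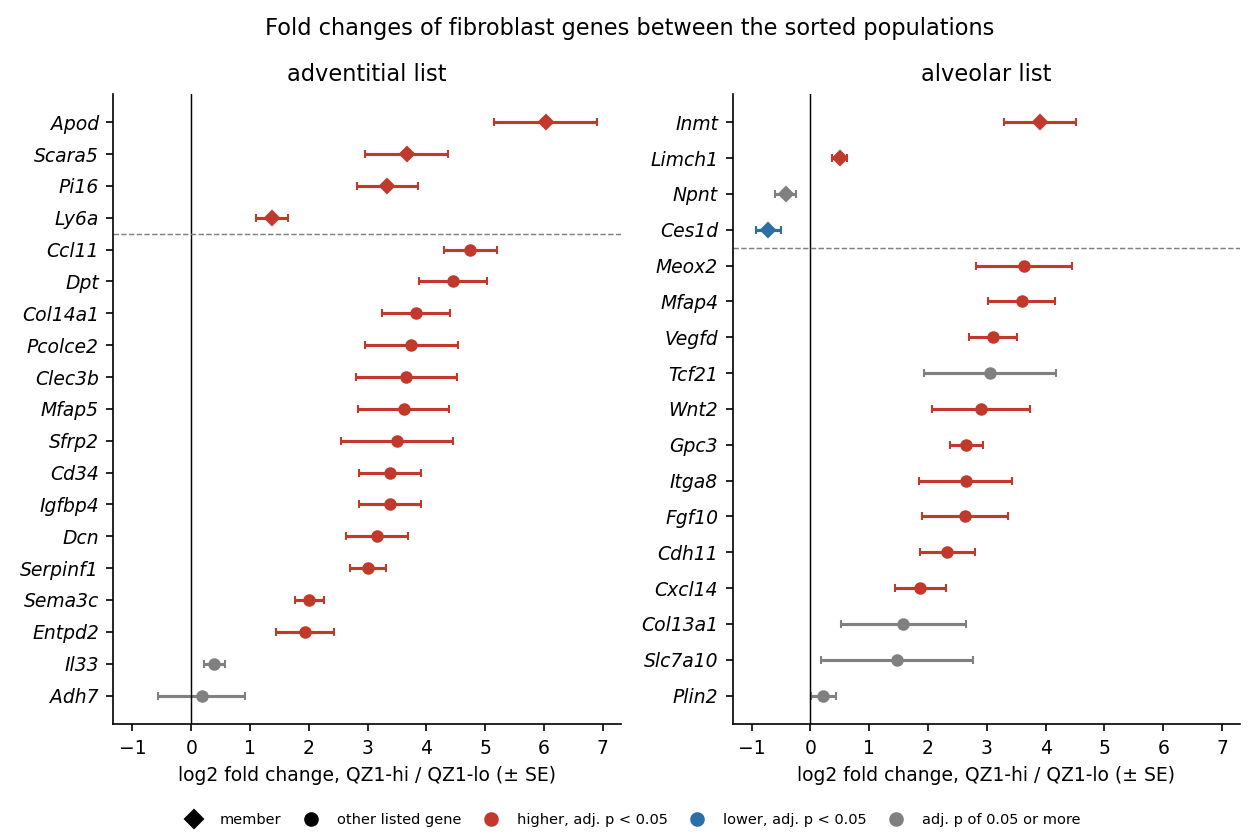
Log2 fold change of QZ1-hi over QZ1-lo for the members (diamonds) and the other listed genes (circles) of the adventitial and alveolar lists, with bars of 1 standard error from edgeR and colors for genes called higher, called lower and not called. Pi16, Scara5, Apod and Inmt lie at 3.34 to 6.03, while Npnt, Ces1d and Limch1 lie between -0.71 and 0.50.

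Other genes known for the same fibroblast kinds were counted beside the members. Of 15 other adventitial genes, all tested, 13 were higher in QZ1-hi, none was lower and 2 were not called. Their median log2 fold change was 3.38. Mfap5 and Pcolce2, both among the 13, passed the filter on low counts only with their QZ1-hi libraries. The chemokine Ccl11 was higher by 4.75 (SE 0.45), the matrix protein gene Dpt by 4.45 (SE 0.57) and the fibril-associated collagen gene Col14a1 by 3.82 (SE 0.58), with edgeR adjusted p of 0.000222, 0.000548 and 0.00113. Dcn, which encodes the proteoglycan decorin, had the highest mean CPM of that list in QZ1-hi, 377 ± 164 CPM against 42.1 ± 28.2 CPM in QZ1-lo (SD, n = 4), where Sema3c and Il33 were above it in CPM. The 2 genes that were not called were Il33, an alarmin cytokine at 84.7 ± 13.8 against 64.4 ± 17.1 CPM (edgeR adjusted p = 0.185), and Adh7, an alcohol dehydrogenase at 0.886 ± 0.600 against 0.781 ± 0.424 CPM (adjusted p = 0.911).

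Of 15 other alveolar genes, 13 passed the filter, with a median log2 fold change of 2.64. Of these 13, 9 were higher in QZ1-hi, none was lower and 4 were not called. Among all genes tested 9.88% were called higher and 8.21% lower. Wnt2, Itga8 and Meox2, called higher, held 30, 62 and 28 summed counts in QZ1-lo. They passed the filter only with their QZ1-hi libraries, so a call of lower was hardly open to them. Mfap4, which encodes an elastic fiber protein, was higher by 3.59 (SE 0.57, edgeR adjusted p = 0.00137), the homeobox gene Meox2 by 3.63 (SE 0.81, 0.00952) and the growth factor gene Vegfd by 3.11 (SE 0.41, 0.000577). Gpc3, which encodes a heparan sulfate proteoglycan, was higher by 2.65 (SE 0.28, 0.000278). Tcf21, a transcription factor of lung mesenchyme, stood at 3.35 ± 2.64 CPM in QZ1-hi and 0.401 ± 0.464 CPM in QZ1-lo (SD, n = 4) and missed the threshold (3.05, SE 1.13, adjusted p = 0.0907). Slc7a10, Col13a1 and the lipid droplet gene Plin2 were not called either. Fgfr4 and Slc38a5 did not pass the filter, with 63 and 33 summed counts in QZ1-hi and 15 and 13 in QZ1-lo. The count of 9 genes became 6 without QZ1-hi replicate 2, QZ1-hi replicate 3, QZ1-lo replicate 1 or QZ1-lo replicate 2. The 9 alveolar genes that were called higher ran from 1.87 for Cxcl14 to 3.63 for Meox2. Npnt, Ces1d and Limch1 lay below that range and Inmt lay above it. Of the 4 listed genes that were not called, Col13a1 (1.58), Slc7a10 (1.48) and Plin2 (0.22) also lay below that range, and Tcf21 lay within it.

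All 12 genes shared by both fibroblast kinds were higher in QZ1-hi, with a median log2 fold change of 3.32. Col3a1, which encodes a fibrillar collagen, was measured at 892 ± 286 CPM in QZ1-hi against 77.6 ± 60.4 CPM in QZ1-lo, and the growth factor receptor gene Pdgfra at 65.6 ± 27.5 against 6.29 ± 4.15 CPM (SD, n = 4). Fn1, which encodes fibronectin and was the highest of the 12 in CPM, had the lowest log2 fold change, 1.06 (SE 0.25, edgeR adjusted p = 0.0118).

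Levels can be set beside each other between genes only per length, so CPM was divided by the exon length of each gene in kilobases. In QZ1-hi the order was Ly6a at 70.3, Pi16 at 19.5, Inmt at 15.5, Scara5 at 10.5, Ces1d at 10.4, Limch1 at 8.90, Npnt at 5.98 and Apod at 1.06 CPM per kb. Neighbours from Pi16 to Limch1 overlapped in their libraries, while Ly6a stood above all and Npnt and Apod were each separate from the gene before them. In QZ1-lo the order was Ly6a at 27.1, Ces1d at 17.0, Npnt at 8.02, Limch1 at 6.31, Pi16 at 1.93, Inmt at 1.03, Scara5 at 0.832 and Apod at 0.0145 CPM per kb. There, Ly6a overlapped Ces1d, Npnt overlapped Limch1, and Pi16, Inmt and Scara5 overlapped in turn. Ces1d, Npnt and Limch1 therefore preceded Pi16, Inmt and Scara5 in QZ1-lo and followed Pi16 and Inmt in QZ1-hi.

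**Figure D3:**
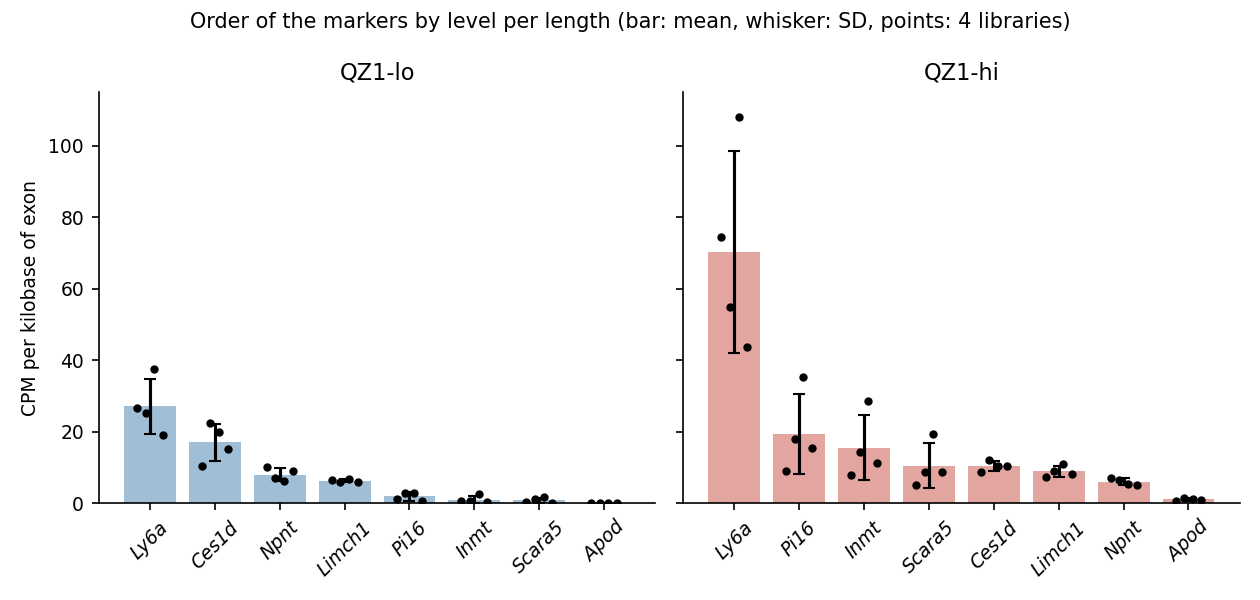
Mean level of each marker in CPM per kilobase of exon, on a linear axis from 0, in QZ1-lo and QZ1-hi, with error bars of 1 SD over 4 libraries and points for the libraries. Ly6a is the highest in both populations, and Pi16, Inmt and Scara5 stand at 10.5 to 19.5 in QZ1-hi against 0.832 to 1.93 in QZ1-lo.

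Within a population the members did not all peak in the same library. QZ1-hi replicate 3 had the highest level of Pi16, Ly6a, Scara5, Inmt and Limch1, and QZ1-lo replicate 3 had the highest level of those 5 genes and of Apod. QZ1-hi replicate 1 had the lowest level of Pi16, Scara5, Apod, Ces1d, Inmt and Limch1. Profiles over the 8 libraries were compared by the root mean square difference of log2 CPM after each gene was centered on its own mean, where 0 is an identical profile. Inmt was 0.56 from Pi16 and 0.61 from Scara5, but 2.49 from Npnt and 2.51 from Ces1d. Npnt was 0.54 from Ces1d and 0.56 from Limch1, and Ly6a was 0.55 from Limch1 and 1.23 from Pi16. These distances hold the difference between populations as well as the spread within them.

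Across all tested genes with a symbol, the genes nearest to Pi16 were Pdgfra at 0.24, Itih5 at 0.26 and Medag at 0.28, where the median over all genes was 1.92. Pdgfra is a general fibroblast receptor gene. Nearest to Scara5 were Abca8a, Pcolce2 and Slit3, at 0.22 to 0.32, and nearest to Inmt were Lrrn4cl, Ltbp4 and the proteoglycan gene Lum, at 0.35 to 0.40. Apod had more distant neighbours, Mmp3, Prrx2 and Ntrk2, at 0.50 to 0.53. The genes nearest to Ly6a were Atp2a3, Efnb2 and Ets1, at 0.14 to 0.17. For Npnt they were Iars, Akap5 and Agrn at 0.095 to 0.12, of which Akap5 was on the list of alveolar type 1 epithelial genes. Ces1d was nearest to Ift140, Lratd2 and Pgm2l1 at 0.15 to 0.17, and Limch1 to Dync1li2, Haus6 and Gnpda2 at 0.061 to 0.082. A gene that hardly varies has many near neighbours, and the medians over all genes for Npnt and Limch1 were 0.52 and 0.49.

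Genes of other cell types moved between the populations as well. All 8 endothelial genes were higher in QZ1-hi, with a median log2 fold change of 3.39. Their summed levels were 1364, 793, 1863 and 749 CPM in QZ1-hi against 76.5, 103, 249 and 50.2 CPM in QZ1-lo. Cdh5 had the highest mean CPM of the list over the 8 libraries, not adjusted for gene length. In QZ1-lo alone, Pecam1 stood at 30.5 CPM and Cdh5 at 30.4 CPM. Sca-1 is also an endothelial protein, and the order of the QZ1-hi libraries by Ly6a, replicate 3 then 1, 2 and 4, was the order by the endothelial sum and by the pericyte sum. In QZ1-lo the order by Ly6a, replicate 3 then 1, 2 and 4, was not that of these sums, replicate 3 then 2, 1 and 4, but that of the general epithelial sum. Pi16, Scara5 and Inmt had the order of both sums in QZ1-lo, which was also the order of the other adventitial, smooth muscle and alveolar type 2 sums, but matched none of these in QZ1-hi, where replicate 1 was their lowest library and had the second highest endothelial sum. All 5 mesothelial genes were higher in QZ1-hi (median 2.91). Their sum was 290.2 CPM in replicate 2 against 41.9 to 72.4 CPM in the other QZ1-hi libraries and 6.06 to 39.2 CPM in QZ1-lo. Upk3b was the highest in mean CPM over the 8 libraries, but Msln was above it in QZ1-lo, at 6.64 against 5.63 CPM. Of 8 pericyte genes 3 were higher and 5 were not called (median 2.22), with Pdgfrb the highest in mean CPM and with sums of 49.2 to 75.4 CPM against 11.0 to 27.5 CPM. Of 6 smooth muscle genes 2 were higher, Myh11 and Tagln, 1 was lower, Cnn1, and 3 were not called (median 1.11), with sums of 27.4 to 42.9 CPM against 11.8 to 24.8 CPM, and Acta2 was the highest in mean CPM. Of 6 tested genes of peribronchial fibroblasts and myofibroblasts 1 was higher, Aspn, and 5 were not called (median 1.13), with sums of 39.3 to 77.0 CPM against 25.8 to 34.3 CPM, and Rgs2 was the highest in mean CPM. The part of any of these cells in the values of Pi16, Ly6a, Scara5, Apod and Inmt was not tested.

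Epithelial genes moved the other way in most lists. Among alveolar type 1 genes 4 of 6 were lower in QZ1-hi, Pdpn was higher and Akap5 was not called (median -0.64), with summed levels of 820, 710, 649 and 560 CPM in QZ1-hi against 1214, 986, 1146 and 1065 CPM in QZ1-lo, and Ager was the highest in mean CPM. Npnt followed the same order of QZ1-hi libraries as this sum and the general epithelial sum, replicate 1 the highest and replicate 4 the lowest, but neither order in QZ1-lo. All 5 airway epithelial genes tested were lower (median -2.18), with sums of 328, 1019, 393 and 416 CPM in QZ1-hi against 1478, 4143, 2931 and 2028 CPM in QZ1-lo, and Scgb1a1 was the highest in mean CPM. The basal cell gene Krt5, with 0 summed counts in QZ1-hi and 6 in QZ1-lo, did not pass the filter. Ces1d ranked the libraries as the airway sum did in both populations, replicates 2, 4, 3 and 1 in QZ1-hi and 2, 3, 4 and 1 in QZ1-lo, although replicates 3 and 4 of QZ1-hi were both at 24.7 CPM. The QZ1-hi order of Ces1d was also that of the summed other alveolar fibroblast genes, while the QZ1-lo order was not. Plin2, which was not called, was the highest of that sum in mean CPM. It made up 136 of 336 CPM in QZ1-hi and 117 of 148 CPM in QZ1-lo. These orders were looked for after the values were seen, over 13 lists and 8 members. Of 104 pairs 6 matched in QZ1-hi, 17 in QZ1-lo and 1 in both. How many matches would arise without any relation was not computed, so no conclusion is drawn from them. All 6 general epithelial genes, Epcam among them, whose protein was the other axis of the sort, were lower (median -1.32, Cdh1 the highest in mean CPM, sums of 530 to 823 CPM against 1471 to 2034 CPM). Of 8 alveolar type 2 genes Sftpc and Slc34a2 were higher and 6 were not called (median 0.39, Sftpc the highest in mean CPM, sums of 6704 to 11658 CPM against 4895 to 7345 CPM). None of 8 blood cell genes was called (median -0.16, Hba-a1 the highest in mean CPM, sums of 289.9 to 851 CPM against 393 to 1401 CPM), although the sort was set to leave out CD45+ cells and Ptprc, which encodes CD45, stood at 131 ± 64.2 CPM in QZ1-hi and 125 ± 30.0 CPM in QZ1-lo. The part of epithelial cells in the values of Npnt, Ces1d and Limch1 was not tested.

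**Figure D4:**
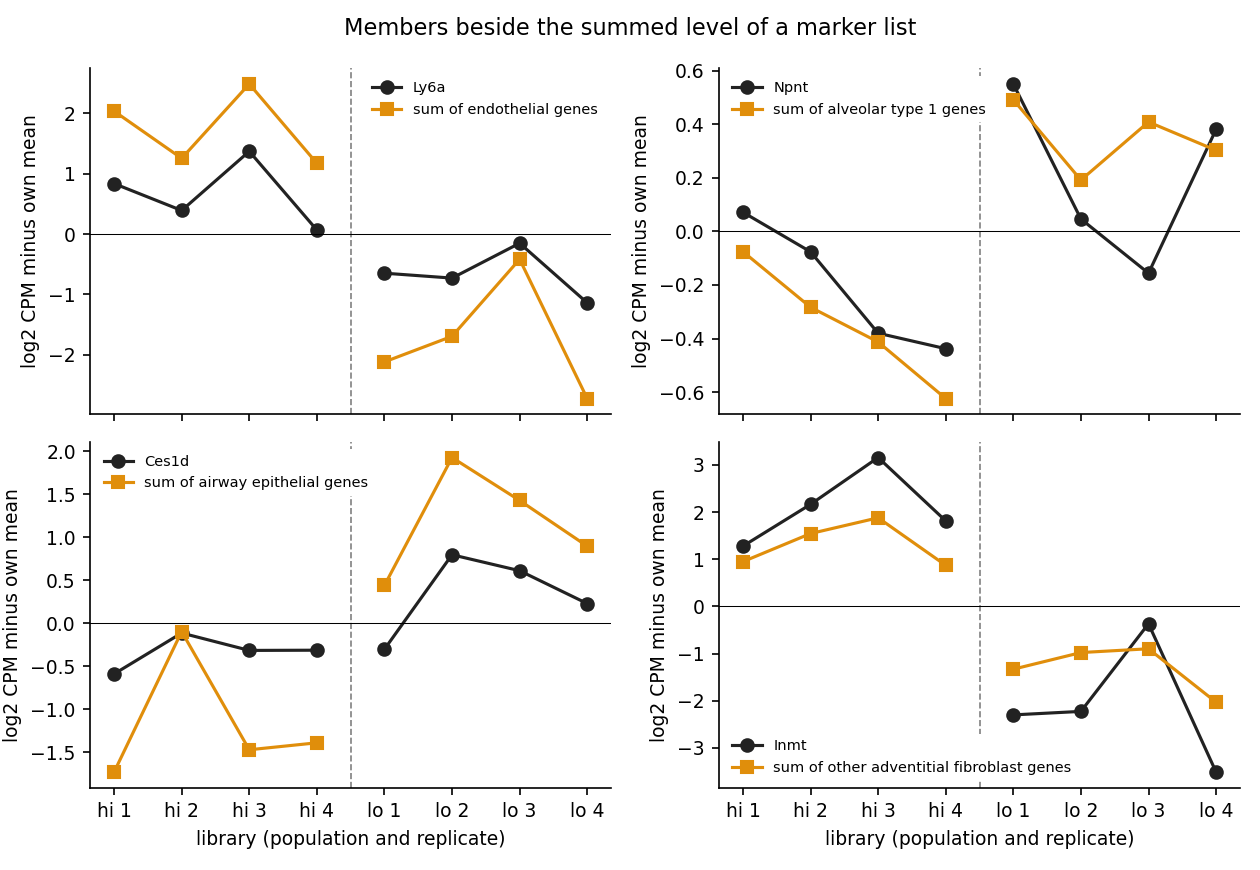
Profiles over the 8 libraries of Ly6a, Npnt, Ces1d and Inmt (black) beside the summed level of endothelial, alveolar type 1, airway epithelial and other adventitial fibroblast genes (orange), as log2 CPM minus the mean of each profile, with QZ1-hi libraries left and QZ1-lo libraries right of the dashed line and a vertical scale of its own in each panel. The order of the 4 libraries within a population is the same for Ces1d and the airway sum in both populations. It is also the same for Ly6a and Npnt and their sums in QZ1-hi, and for Inmt and its sum in QZ1-lo. The pairs shown are among those that matched in at least 1 population. Of all 104 pairs 6 matched in QZ1-hi, 17 in QZ1-lo and 1 in both. These matches were not tested against chance.

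Genes related to the members in sequence or function were measured in the same libraries. Of 7 tested CAP family genes Pi16, Pi15 (2.16, SE 0.31) and Crispld2 (1.78, SE 0.33) were higher in QZ1-hi, Glipr2 was lower (-0.51, SE 0.13) and 3 were not called. Of 7 tested Ly6 genes 3 were higher, namely Ly6a, Ly6c1 (0.93, SE 0.23) and Ly6c2 (0.86, SE 0.23), and Ly6e, the highest in CPM, was not called. The scavenger receptor gene Colec12 was higher with Scara5 (1.67, SE 0.31), while Scara3, Msr1 and Marco were not called. Among 5 tested lipocalin genes Apod and Lcn2 (0.76, SE 0.17) were higher, at 2.74 ± 0.859 against 0.0374 ± 0.0512 CPM for Apod and 319 ± 84.2 against 188 ± 12.4 CPM for Lcn2 (SD, n = 4).

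Itga8, which encodes the alpha subunit of the nephronectin receptor, was higher in QZ1-hi by 2.64 (SE 0.79, edgeR adjusted p = 0.0384), whereas its ligand gene Npnt was not called. Itgb1, which encodes the beta subunit, and the nephronectin relative Egfl6 were not called, at 0.14 and 0.16. Nnmt, which encodes nicotinamide N-methyltransferase, was also higher in QZ1-hi (2.76, SE 0.80, edgeR adjusted p = 0.0336). Its levels were 2.08, 9.68, 2.08 and 2.20 CPM in QZ1-hi and 0.417, 1.51, 0.326 and 0.123 CPM in QZ1-lo. Replicate 2 thus stood far above the other QZ1-hi libraries, whereas Inmt was highest in replicate 3. Ces1d was the one called gene of 3 tested carboxylesterase 1 genes, and it held 1899 of the counts in QZ1-hi where Ces1e held 56 and Ces1f 42. Of its 50-base stretches, 1.08% occur in other genes. Lmo7, the closest relative of Limch1 on the lists, was lower in QZ1-hi (-1.79 on the log2 scale, SE 0.15, edgeR adjusted p = 0.000144), at 228 ± 41.3 CPM against 787 ± 57.4 CPM (SD, n = 4), the opposite direction to Limch1.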

How the data were processed

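Bulk RNA-seq of sorted lung cells gave 8 libraries, 4 per population. The authors deposited raw read counts per Entrez gene, made with Rsubread and not normalized; the submitters' processing notes name mm10 and DESeq2. The strand setting of the counting is not given in the sources used here. Symbols were matched for 25275 identifiers and not for 1904. No column lay outside the labelled samples. The 8 members and the gene lists were chosen with earlier results of these data known. The text names the members, the listed genes and, for each member, the 3 genes with the nearest profile. Counts were filtered with filterByExpr (minimum count 10), scaled by TMM and tested with edgeR 4.0.16 (glmQLFTest, R 4.3.3) with no covariates, and p-values were adjusted by Benjamini-Hochberg over 15583 genes. Profiles used a prior count of 2. The scripts were checked on simulated data. Alternatives used DESeq2 1.42.0, limma 3.58.1 (voom with quality weights), other scalings, filters and thresholds, and each library left out in turn. Where separate mice are not named, p-values measure the spread between libraries. Exon lengths and shared stretches came from GENCODE M21. Intervals cover counting error only. Some listed genes are not reported here.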

Additional observations from a re-analysis of the deposited data

Results flagged for a closer look

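In each group of 4 libraries, the members' levels and the summed levels of the marker lists were examined for a library far from the others. Of 46 groups, 3 were flagged, and chance alone flags about 1 in 20. No member was among them. QZ1-hi replicate 3 stood apart for the summed level of peribronchial fibroblast and myofibroblast genes, at 77.0 CPM where the other QZ1-hi libraries were between 39.3 and 43.9 CPM. QZ1-hi replicate 2 stood apart for the mesothelial genes, at 290.2 CPM against 41.9 to 72.4 CPM. The same library stood apart for the airway epithelial genes, at 1019 CPM against 328 to 416 CPM.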

How the results depend on the processing

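Pi16, Ly6a, Scara5, Apod and Inmt were called higher in QZ1-hi under every alternative that gave them a value; Apod had none where 10 counts were required in each library. No member changed direction. Without single libraries, log2 fold changes ran from 2.86 to 3.63 for Pi16, 1.07 to 1.58 for Ly6a, 3.17 to 4.28 for Scara5, 5.59 to 7.27 for Apod, 3.42 to 4.82 for Inmt, 0.35 to 0.57 for Limch1 (called in 3 of 8 fits), -0.89 to -0.55 for Ces1d (called in 2 of 8) and -0.53 to -0.30 for Npnt (called in none, adjusted p 0.0656 to 0.364). Scaling by library size only gave 0.025 for Limch1 and -0.87 for Npnt, now called; limma-voom gave -0.61 for Ces1d. With the threshold at 0.01 neither Limch1 (0.50) nor Ces1d (-0.71) passed. Members called lower numbered 0 in limma-voom, 2 with library size only, 0 at 0.01 and 0 to 1 without single libraries, and members called higher 5 to 6. With 10 counts in every library, 8 other adventitial and 4 other alveolar genes were higher, since fewer were tested, and at 0.01 the alveolar count was 5. Without single libraries these counts ran from 11 to 13 and from 6 to 9. Genes called higher numbered 882 with library size only and 902 at 0.01, those lower 2509 and 665; without single libraries they ran from 1136 to 1506 and from 938 to 1201. Beyond the scalings and thresholds named, the cause of a lost call was not tested. No paired analysis was possible because the labels hold no replicate numbers. Neither the labels nor the study's methods tie a QZ1-hi and a QZ1-lo library to the same mouse. By deposition order, the blood cell sum and the other adventitial sum each ranked the libraries alike in both populations. The sums of the other lists of cell types did not. Whether libraries with the same number share a mouse was not tested.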
